A study of Mus musculus with 12 samples.

Results

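The genes described here are the NRF2 antioxidant genes, a set of 10 mouse genes that make, recycle and use the thiol antioxidants glutathione and thioredoxin or break down heme and quinones. Members were taken by name, and a probe set was used where the platform annotation paired it with exactly 1 gene symbol among the 10. This gave 17 probe sets of 9 genes, out of 20380 single-gene probe sets of 12393 genes in all. Prdx1, the tenth gene, was not analysed here because all 5 of its probe sets were paired with Gm21399 as well. The series holds 12 Affymetrix arrays, each of 1 RNA sample, with 3 in each of 4 groups. The groups were RAW264.7 cells (a mouse macrophage-like line) given estradiol at 1 ug/mL overnight, unstimulated RAW264.7 cells, bronchoalveolar lavage macrophages of pregnant mice, and lavage macrophages of control mice. By the series' design text the untreated cultures received vehicle and RNA was taken directly from lavage cells, whereas the treatment label names estradiol for all 12 samples. Strain, age, sex, stage of pregnancy, the vehicle and any sorting of the lavage cells are not given in the sources used here, and neither is whether replicates came from separate cultures or animals, so p-values measure only the spread between these samples.

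NRF2, encoded by Nfe2l2, is a transcription factor that KEAP1 and the ubiquitin ligase scaffold CUL3 mark for degradation until oxidants or electrophiles modify KEAP1. NRF2 then pairs with a small MAF protein and binds antioxidant response elements near genes such as those described here, while BACH1 occupies the same elements as a repressor until heme displaces it. In macrophages this programme is known for limiting oxidative damage during phagocytosis and for handling heme from red cells. Several of these genes also answer other factors, Slc7a11 for example to ATF4, which acts when amino acids run short.

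Values are the deposited RMA intensities on a log2(intensity + 1) scale, and a gene is represented by its probe set with the highest mean over all 12 arrays. The median intensity of an array lay between 369.3 and 392.6, and Pearson correlations between arrays of the same group were 0.995 to 0.999 over all probe sets. Macrophage markers were present in both sources, with 5 of 6 above the 40th percentile of each cell-line array and 6 of 6 in each lavage array. Of 8 measured alveolar macrophage markers, 8 were above that percentile on every lavage array and 2 on every RAW264.7 array. Lavage arrays also held lung epithelial transcripts, with 7 to 9 of 10 markers above the percentile in pregnant and 7 to 8 in control samples, against 0 of 10 in RAW264.7 cells. In such bulk samples, fewer cells of a type and less RNA per cell cannot be told apart. Estradiol replicate 2 had the widest 3′ to 5′ gap of the cell-line arrays for actin, 0.74 (log2) against 0.39 to 0.48 on the other 5, which is a sign of more degraded RNA.

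With estradiol, 3 of the 9 measured genes rose in RAW264.7 cells and 0 fell. They were Slc7a11, the cystine importer that supplies cysteine for glutathione, Srxn1, the sulfiredoxin that repairs overoxidised peroxiredoxins, and Mgst1, a membrane-bound glutathione transferase. The other 6, among them the classic NRF2 markers Hmox1 and Nqo1, did not pass limma's test. Over all 12393 genes the same test called 10%, with 5.92% higher and 4.09% lower, so 3 of 9 lies above that background in number, but the genes were chosen with earlier results known and no test was made of the set. The median change over the 9 genes was 0.08, against 0.02 over all genes.

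**Figure D1:**
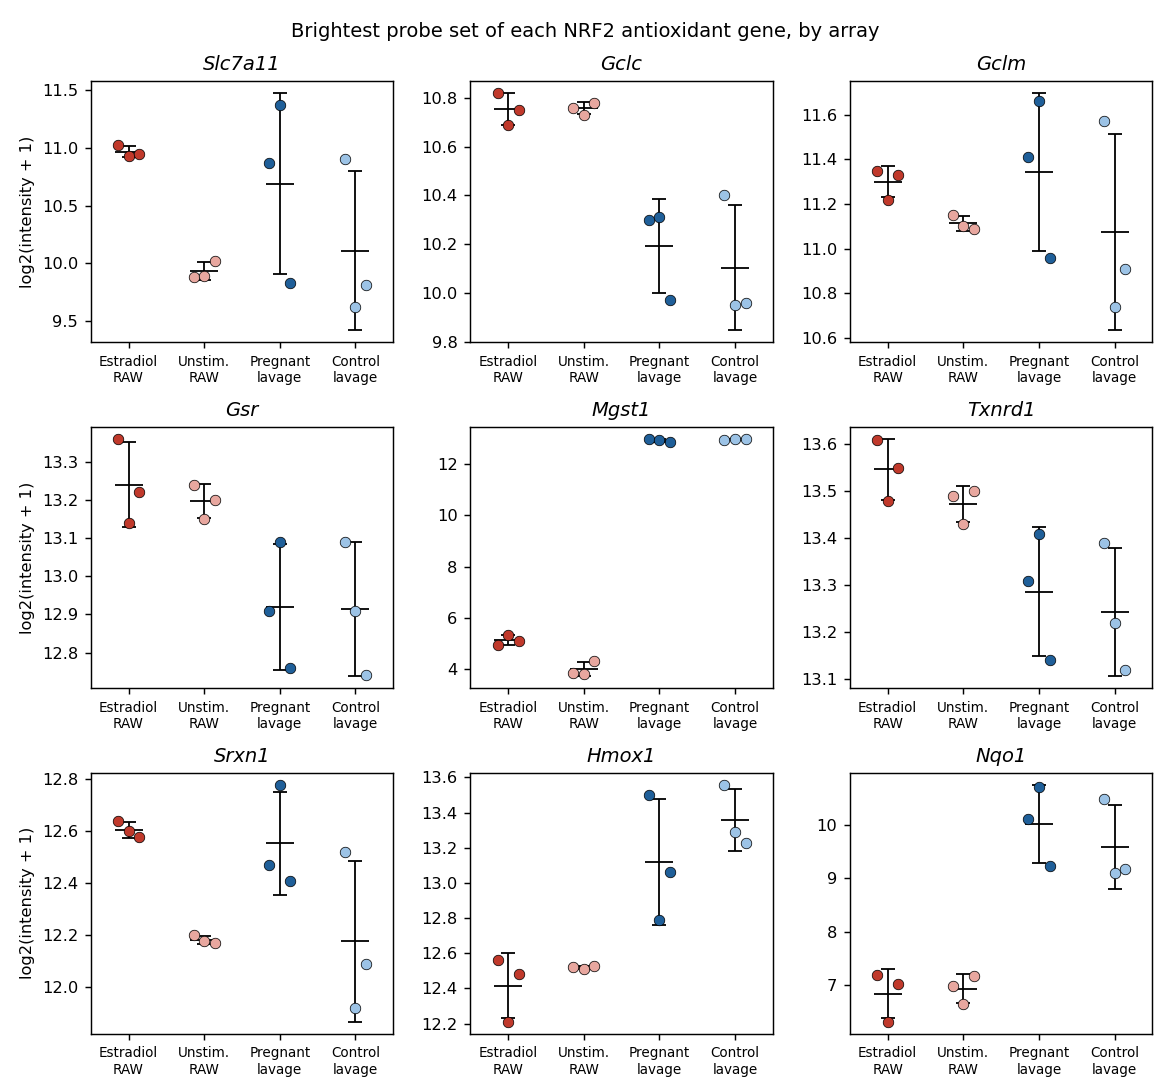
Level of the brightest probe set of each gene on each array, as log2(intensity + 1), with 1 panel per gene and its own vertical scale. Points are arrays, wide dashes are group means and bars are SD (n = 3). In RAW264.7 cells Slc7a11, Srxn1 and Mgst1 lie higher on every estradiol array than on any unstimulated array, while lavage points of Slc7a11, Gclm and Nqo1 are widely spread within both lavage groups.

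Slc7a11 forms the cystine and glutamate exchanger together with the heavy chain Slc3a2. It stood at 11.02, 10.93 and 10.95 in estradiol-treated cells, against 9.88, 9.89 and 10.02 in unstimulated cells. The groups were fully apart, with the lowest estradiol array above the highest unstimulated one by far more than the spread within either. The change was 1.04 ± 0.06 (log2, SE), or 2.05-fold (limma adjusted p = 0.000355), and it stayed between 1.01 and 1.08 when each of the 6 arrays was left out in turn. In a fit of all 12 arrays, which gives the gene the wider spread of the lavage samples, the same change did not pass (limma adjusted p = 0.134).

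Srxn1 was read by 4 probe sets, and all 4 rose. Its brightest stood at 12.64, 12.60 and 12.58 in estradiol-treated cells, against 12.20, 12.18 and 12.17 in unstimulated cells. That is 0.42 ± 0.05 (log2, SE), or 1.34-fold (limma adjusted p = 0.00322). The other 3 probe sets changed by 0.41, 0.50 and 0.59 (log2, limma adjusted p = 0.00467, 0.0152 and 0.00575), so no probe set of this gene overlapped between the groups. The call of the brightest held without any 1 array (adjusted p up to 0.026) but not in the fit of all 12 arrays (limma adjusted p = 0.0969). The probe set with a change of 0.50 kept its call in 2 of the 6 fits that left out an array (limma adjusted p up to 0.0698).

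Mgst1 detoxifies lipid hydroperoxides and electrophiles with glutathione. Its brighter probe set stood at 4.96, 5.33 and 5.11 in estradiol-treated cells, against 3.87, 3.83 and 4.33 in unstimulated cells. These levels are near the bottom of the array, at intensities of 30.15 to 39.11 against 13.24 to 19.11, and on 0 of the 6 cell-line arrays did the probe set exceed the 40th percentile. The difference of 1.12 ± 0.15 (log2, SE) passed (limma adjusted p = 0.0073) and held without any 1 array (adjusted p up to 0.0384). The other Mgst1 probe set, which was dim on all 12 arrays, changed by 0.24 ± 0.09 and did not pass (limma adjusted p = 0.166), and the mean of both probe sets changed by 0.68 ± 0.11 (limma adjusted p = 0.0108).

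Stretches before the start sites are shown for the genes that rose and for Gclm, which varied with Slc7a11 and Srxn1 in lavage samples. They come from RefSeq (GRCm38.p6), which had 10 windows for 7 of the 10 genes, each from 250 bases before to 50 bases after a start. The windows were searched on both strands for TGACNNNGC, the core of the antioxidant response element, for TGAGTCA, the AP-1 site, and for TGATGCAA, part of the amino acid response element that ATF4 and C/EBP proteins bind. Capitals mark matches, each stretch ends at the last base before the start, and positions count back from the start.
Slc7a11, chr3:50443614-50443699, minus strand: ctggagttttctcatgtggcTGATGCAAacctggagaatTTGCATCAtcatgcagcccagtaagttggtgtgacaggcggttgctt
Srxn1, chr2:152105402-152105523, plus strand: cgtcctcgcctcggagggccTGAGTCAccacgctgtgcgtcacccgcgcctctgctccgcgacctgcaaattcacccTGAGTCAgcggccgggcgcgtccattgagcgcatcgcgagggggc
Gclm, chr3:122245403-122245556, plus strand: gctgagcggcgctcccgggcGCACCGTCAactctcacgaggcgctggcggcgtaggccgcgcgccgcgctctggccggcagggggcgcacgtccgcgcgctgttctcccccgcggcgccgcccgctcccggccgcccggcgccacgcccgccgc
Mgst1, chr6:138140451-138140526, plus strand: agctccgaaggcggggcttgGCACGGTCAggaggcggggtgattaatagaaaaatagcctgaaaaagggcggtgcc
The Slc7a11 stretch held TGATGCAA at -66 and, on the opposite strand, at -47. Only 0.895% of all 32851 promoter windows held this motif, and 2 windows held it more than once. The Srxn1 stretch held the AP-1 site at -102 and -45, a motif in 5.2% of windows, and its window held the antioxidant core after the start, at 29. From -45 the letters read TGAGTCAgc, which departs from the searched TGACNNNGC only by a G in place of the C. That form was not searched for. The Gclm and Mgst1 stretches each held the antioxidant core, at -134 and -56, as did 12.4% of windows. No 2 matches overlapped in these 4 windows. Nqo1, which also varied with Slc7a11 in lavage samples, had 1 window, without a match, and is not shown. Mgst1 had 2 windows, and only the window shown held a match. Windows of Prdx1 and Txnrd1 held matches too and are not printed. A match describes letters and not binding, and a window without one says nothing about elements farther away.

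Of the other glutathione synthesis genes, Gclm encodes the modifier subunit of glutamate-cysteine ligase and Gclc its catalytic subunit. Gclm stood at 11.35, 11.22 and 11.33 in estradiol-treated cells, against 11.15, 11.10 and 11.09 in unstimulated cells. These groups did not overlap, as for 4 of the 9 genes and 34.8% of all genes, and the change of 0.19 ± 0.06 (log2, SE) missed the threshold (limma adjusted p = 0.0945). It passed without estradiol replicate 2 (limma adjusted p = 0.0333), with a filter on dim probe sets (0.0481) and with array weights (0.00211). Gclc stood at 10.82, 10.69 and 10.75 in estradiol-treated cells, against 10.76, 10.73 and 10.78 in unstimulated cells, and these arrays overlapped. Its difference was 0.00 with a 95% interval of -0.13 to 0.13, so a change of the size seen for Slc7a11 lies outside that interval.

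Gsr, the reductase that regenerates glutathione, stood at 13.36, 13.14 and 13.22 in estradiol-treated cells, against 13.24, 13.15 and 13.20 in unstimulated cells. Txnrd1, the cytosolic selenoenzyme that reduces thioredoxin, stood at 13.61, 13.48 and 13.55, against 13.49, 13.43 and 13.50. Both genes overlapped between the groups, and their changes of 0.04 ± 0.07 and 0.08 ± 0.06 (log2, SE) did not pass (limma adjusted p = 0.751 and 0.444). Hmox1, the inducible heme oxygenase, stood at 12.56, 12.21 and 12.48 in estradiol-treated cells, against 12.52, 12.51 and 12.53 in unstimulated cells. Estradiol replicate 2 alone lay clearly under the rest, and the change was -0.10 ± 0.09 (95% interval -0.32 to 0.12, limma adjusted p = 0.532). Nqo1, the quinone reductase, was dim in the cell line, at 7.18, 6.31 and 7.02 with estradiol, against 6.98, 6.64 and 7.17 unstimulated (change -0.09 ± 0.24, limma adjusted p = 0.856).

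Probe sets of the same gene differed in how far estradiol replicate 2 fell below its group. That array was the lowest of the 3 for 13 of the 17 probe sets, or 76.5%, against 37.1% of all probe sets. The weaker Gsr probe set stood at 10.31, 9.66 and 10.07 in estradiol-treated cells, against 10.16, 10.21 and 10.27 in unstimulated cells, with the second estradiol array standing apart. The weaker Gclc probe set was likewise at 9.62 on that array and at 10.10 and 9.97 on the other estradiol arrays, against 10.03 to 10.09 unstimulated. The part of the RNA quality of that array, given above, in these values was not tested. Over all 17 probe sets, 6 rose and 0 fell, against 5.43% of all probe sets called higher. Those 6 read only 3 genes, with every Srxn1 probe set among them, so they are not separate genes.

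**Figure D2:**
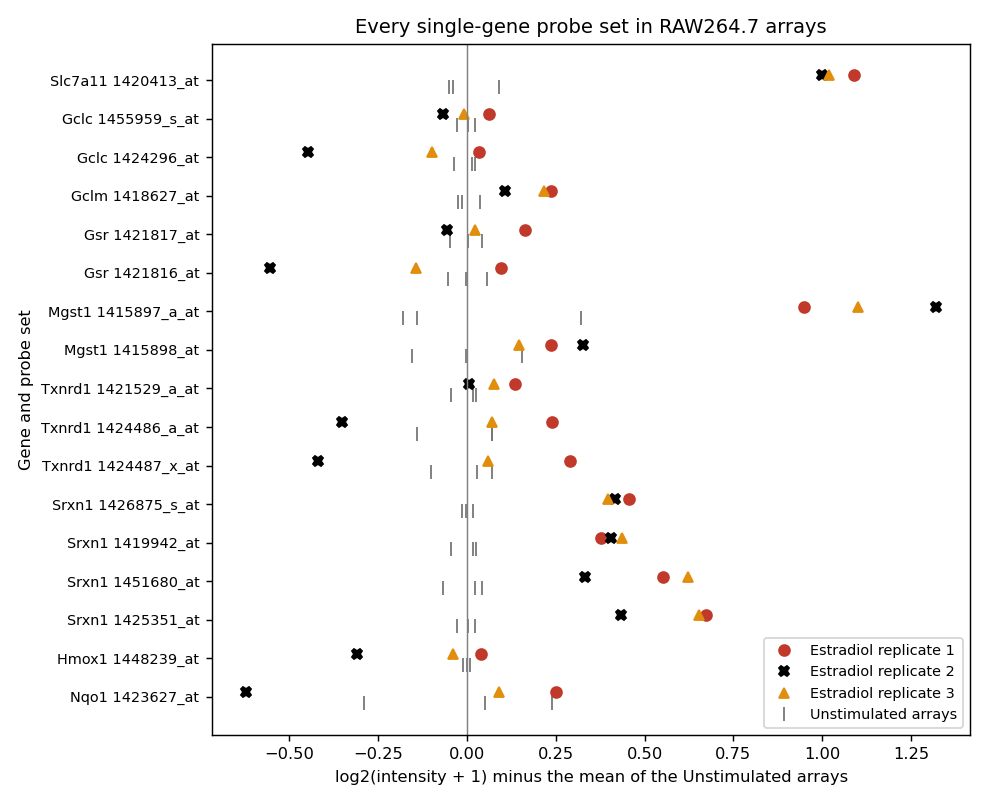
Each of the 17 single-gene probe sets in the cell line, with the horizontal axis giving log2(intensity + 1) minus the mean of the 3 unstimulated arrays. Symbols are the estradiol replicates and grey ticks the unstimulated arrays. All 4 Srxn1 probe sets and that of Slc7a11 lie right of the ticks, and estradiol replicate 2 (cross) lies left of the other estradiol arrays for 13 probe sets.

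Of 13 measured regulators of the pathway 3 rose with estradiol and 0 fell, against 5.92% of all genes higher and 4.09% lower. The 3 were the small MAF genes Maff and Mafk and the adaptor gene Sqstm1. The median change of the 13 was 0.08, against 0.02 over all genes, and no test was made of the list. Maff, whose protein is a small MAF partner, stood at 8.53, 8.53 and 8.35 in estradiol-treated cells, against 7.89, 7.69 and 7.70 in unstimulated cells, a 1.64-fold rise (0.71 ± 0.08 log2, SE, limma adjusted p = 0.00369). Mafk rose by 0.33 ± 0.06 and Sqstm1, which encodes the p62 adaptor that binds KEAP1, by 0.26 ± 0.05 (limma adjusted p = 0.0271 and 0.019), and each of these 2 calls held in 2 of the 6 fits that left out an array. Nfe2l2 itself stood at 12.97 ± 0.01 in estradiol-treated cells and 12.98 ± 0.04 in unstimulated cells (SD, n = 3 each; change -0.01, 95% interval -0.13 to 0.10). Keap1 (-0.20 ± 0.07), Bach1 (0.08 ± 0.06), Cul3 (0.00 ± 0.05) and Mafg (0.17 ± 0.07) did not pass (limma adjusted p = 0.138, 0.402, 0.985 and 0.177). Keap1 passed as lower with the mean of its probe sets (-0.33, limma adjusted p = 0.0161), with array weights (-0.22, 0.00379) and without estradiol replicate 2 (-0.27, 0.0322), and Mafg passed as higher with array weights (0.19, 0.0102). These are transcript levels, and NRF2 is controlled largely through its protein.

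Among 33 other measured NRF2 targets, 7 rose and 2 fell, against 5.92% of all genes higher and 4.09% lower. Their median change was 0.05, against 0.02 over all genes, and no test was made of the list. Gstp1, a cytosolic glutathione transferase, rose most, at 11.76, 11.75 and 11.79 in estradiol-treated cells, against 10.88, 10.91 and 10.81 in unstimulated cells (1.87-fold, limma adjusted p = 0.000329). Slc3a2, the partner chain of Slc7a11, stood at 12.57, 12.70 and 12.61, against 12.26, 12.25 and 12.23, and rose 1.30-fold (limma adjusted p = 0.00809). Gss, which completes glutathione, rose 1.18-fold (limma adjusted p = 0.033). The exporter Abcc1 (1.36-fold), the aldo-keto reductase Akr1b8 (1.25-fold), the epoxide hydrolase Ephx1 (1.21-fold) and Gstm2 (1.24-fold, dim on all but 2 of 12 arrays) also rose. Gstm1, of the same transferase class as Gstm2, fell by 0.52 ± 0.06 (log2, SE), with 11.81, 11.83 and 11.96 in estradiol-treated cells, against 12.38, 12.39 and 12.39 in unstimulated cells (limma adjusted p = 0.00322). Cd36, a scavenger receptor, fell by 0.52 ± 0.12 (limma adjusted p = 0.0458). Calls of 3 of these 9 genes (Gstp1, Slc3a2 and Gstm1) held in all 6 fits that left out an array.

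Of 21 other redox enzymes, 4 rose and 1 fell. In this list, kept apart from the NRF2 lists, 5 of 21 genes were thus called, beside 9 of 33 other NRF2 targets and 10% of all genes. Chac1, which degrades glutathione and is a target of ATF4, stood at 8.01, 8.01 and 7.93 in estradiol-treated cells, against 7.43, 7.27 and 7.31 in unstimulated cells (1.57-fold, limma adjusted p = 0.00167). Glrx, a glutaredoxin, rose 1.29-fold, catalase (Cat) 1.23-fold and Sod2, the mitochondrial superoxide dismutase, 1.19-fold (limma adjusted p = 0.0109, 0.0472 and 0.0235). Msra, a methionine sulfoxide reductase, fell by 0.38 ± 0.06 (log2, SE, limma adjusted p = 0.0128). Of these 5 calls only that of Chac1 held in all 6 fits that left out an array, and it ended in the fit of all 12 arrays (limma adjusted p = 0.101). Among markers of other cell types, the neutrophil sum was 665 to 688 (intensity) in estradiol-treated cells, against 406 to 470 in unstimulated cells, with S100a8 the 1 called gene of 7 (change 1.74, limma adjusted p = 0.000892) and Mpo, Elane, Camp and Ngp dim on all arrays. S100a9 was dim in the cell line, at 5.45 to 6.05 with estradiol, against 5.84 to 6.2 unstimulated. Sums of other lists also lay apart. That of 4 red cell markers was 6370 to 8503 with estradiol, against 8810 to 9229 unstimulated, with none called. That of 4 B cell markers was 385 to 421 with estradiol, against 566 to 679 unstimulated, with Ighm called (change -0.86, limma adjusted p = 0.00162) and Cd79a, Cd79b and Ms4a1 dim. That of 7 T cell markers was 6391 to 7040, against 7548 to 7783, with none called, and that of 8 alveolar macrophage markers 12402 to 13308, against 15653 to 15925, with Itgax and Fabp4 called (-0.49 and -0.25, limma adjusted p = 0.0326 and 0.02). Of 10 lung epithelial markers Epcam was called (-0.58, limma adjusted p = 0.0225), while their sums overlapped. The part of these markers in the changes above was not tested.

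**Figure D3:**
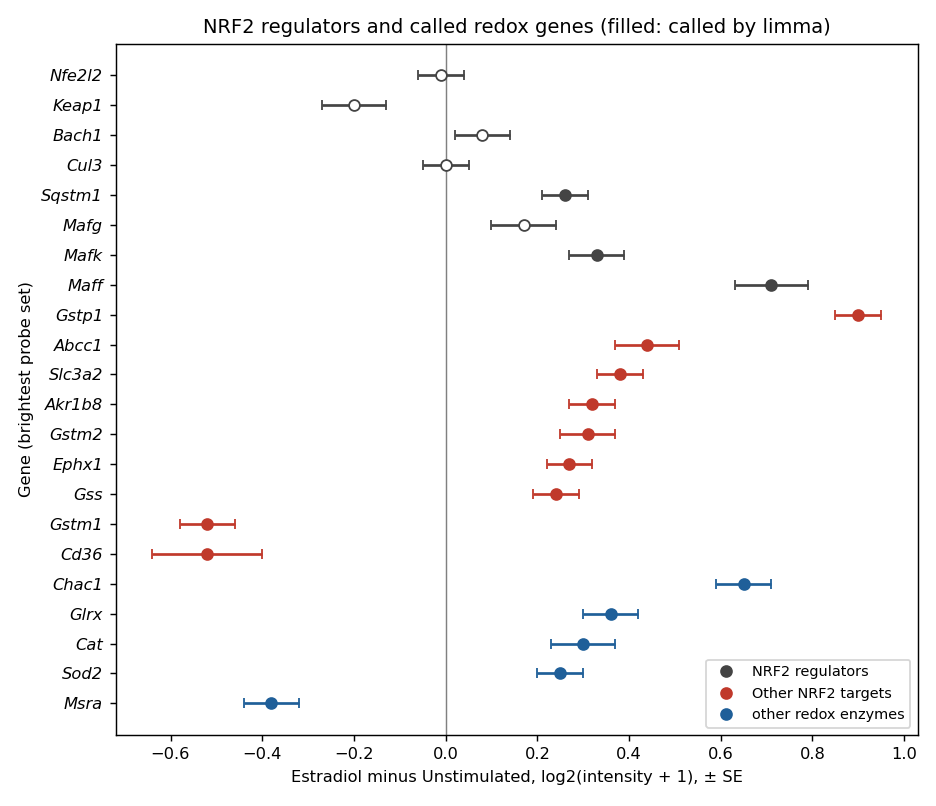
Change with estradiol in RAW264.7 cells (estradiol minus unstimulated, log2(intensity + 1), bars are SE, n = 3 each) of 8 regulators and of the called genes among other NRF2 targets and other redox enzymes. Filled symbols passed limma's test. Nfe2l2 lies at -0.01, Gstp1 at 0.90 and Gstm1 at -0.52.

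In lavage macrophages, 0 of the 9 genes passed between pregnant and control mice, as for all 12393 genes (0% called). By limma, 0 of 9 had an unadjusted p under 0.05, beside 1113 of the 12393. Groups overlapped for 9 of 9 genes, and 15.7% of all genes did not overlap. At such low shares, counts of 0 of 9 are near the background. Slc7a11 stood at 10.87, 11.37 and 9.83 in pregnant mice, against 10.90, 9.62 and 9.81 in control mice. The arrays of both groups spanned more than 2-fold, and the difference of 0.58 had a 95% interval of -0.55 to 1.71 (limma adjusted p = 0.708). Such an interval holds both no change and the rise seen with estradiol.

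Srxn1 came nearest to a difference, at 12.47, 12.78 and 12.41 in pregnant mice, against 12.52, 11.92 and 12.09 in control mice. Control replicate 1 lay among the pregnant arrays, and the difference was 0.38 (95% interval -0.04 to 0.80, limma adjusted p = 0.541). Its 3 other probe sets differed by 0.41, 0.48 and 0.49, none past the threshold. Gclm stood at 11.41, 11.66 and 10.96 in pregnant mice, against 11.57, 10.74 and 10.91 in control mice (difference 0.27, 95% interval -0.35 to 0.89). Nqo1 stood at 10.11, 10.71 and 9.24 in pregnant mice, against 10.49, 9.10 and 9.17 in control mice (difference 0.43, 95% interval -0.73 to 1.59).

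Hmox1 and Mgst1 were arranged differently. Hmox1 stood at 13.50, 12.79 and 13.06 in pregnant mice, against 13.56, 13.29 and 13.23 in control mice, so its lowest value was that of pregnant replicate 2 (difference -0.24, 95% interval -0.69 to 0.21). Mgst1 hardly varied, at 12.96, 12.93 and 12.85 in pregnant mice, against 12.92, 12.96 and 12.98 in control mice, with an interval of -0.19 to 0.12. The brightest probe sets of Gclc, Gsr and Txnrd1 differed by 0.09, 0.01 and 0.04, with 95% intervals of -0.28 to 0.46, -0.29 to 0.30 and -0.21 to 0.29. Their weaker probe sets had wider intervals. That of Gclc differed by 0.06 (-0.42 to 0.54) and that of Gsr by -0.18 (-0.88 to 0.52). Those of Txnrd1 differed by -0.14 (-1.14 to 0.86) and -0.11 (-1.14 to 0.91). Of the 13 regulators 0 passed, and 6 did not overlap between the groups, against 15.7% of all genes. Among these 6, Maff was higher in value in pregnant mice, at 10.45, 10.37 and 10.39, against 10.14, 10.09 and 9.75 in control mice (limma adjusted p = 0.429). Keap1 was higher in value as well, at 11.16, 11.36 and 11.13, against 11.11, 11.12 and 11.12 (limma adjusted p = 0.702). Bach1 was lower in value, at 12.64, 12.60 and 12.66, against 12.70, 12.76 and 12.74 (limma adjusted p = 0.624).

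Most of the variation of these genes in lavage lay between samples of the same group. Control replicate 1 was the highest control array for 8 of the 9 genes, pregnant replicate 2 the highest pregnant array for 7, and pregnant replicate 3 the lowest for 8. Over all probe sets those shares were 32.6%, 34.4% and 28.7%. The median SD of the 9 genes was 0.20 in pregnant and 0.26 in control samples, against 0.11 and 0.10 over all probe sets, whereas in RAW264.7 cells it was 0.07 with estradiol and 0.03 unstimulated, against 0.10 and 0.06. The order of arrays is a description of these 6 samples.

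Marker sums of lung epithelium and neutrophils moved with that order, and those of red cells and T cells only in part. The sum of 7 T cell markers was 11927, 12416 and 12743 in pregnant samples, highest on pregnant replicate 3. In control samples it was 13488, 12249 and 12099. Summed intensities of 10 lung epithelial markers were 24157, 29284 and 16827 in pregnant samples, against 27195, 14606 and 19134 in control samples, so pregnant replicate 2 and control replicate 1 were highest in their groups for this sum too. The surfactant gene Sftpc stood at 11.47, 12.74 and 10.81 in pregnant mice, against 11.72, 9.42 and 10.83 in control mice. Summed intensities of 7 neutrophil markers were 6937, 9562 and 5542 in pregnant samples, against 18736, 6175 and 5765 in control samples. Among them S100a9 stood at 13.57 in control replicate 1 and 10.32 to 11.98 on the other lavage arrays, while the granule genes Mpo, Elane, Camp and Ngp lay between 4.21 and 5.65 on all 6. Summed intensities of 4 red cell markers were 8136, 9309 and 8307 in pregnant samples, against 9300, 8073 and 7771 in control samples. Pregnant replicate 2 and control replicate 1 were again highest in their groups, but pregnant replicate 1 rather than 3 was lowest. Single red cell genes did not each have those arrays highest. Alas2 stood at 8.45, 11.49 and 9.41 in pregnant samples, against 9.05, 9.71 and 7.59 in control samples, and Hba-a2 at 12.64 to 12.91 in pregnant and 12.81 to 13.09 in control samples, against 13.09 to 13.16 in unstimulated RAW264.7 cells. Hba-a1 and Slc4a1 were dim on all 6 lavage arrays, at 5.49 or less. Pregnant replicate 2 had the widest 3′ to 5′ gap of the lavage arrays, for actin (0.391 against 0.261 to 0.35 on the other 5), Gapdh (0.436 against 0.325 to 0.386) and transferrin receptor (3.857 against 2.834 to 3.473). The part of epithelial, neutrophil or red cell RNA and of RNA quality in the levels of these genes was not tested.

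**Figure D4:**
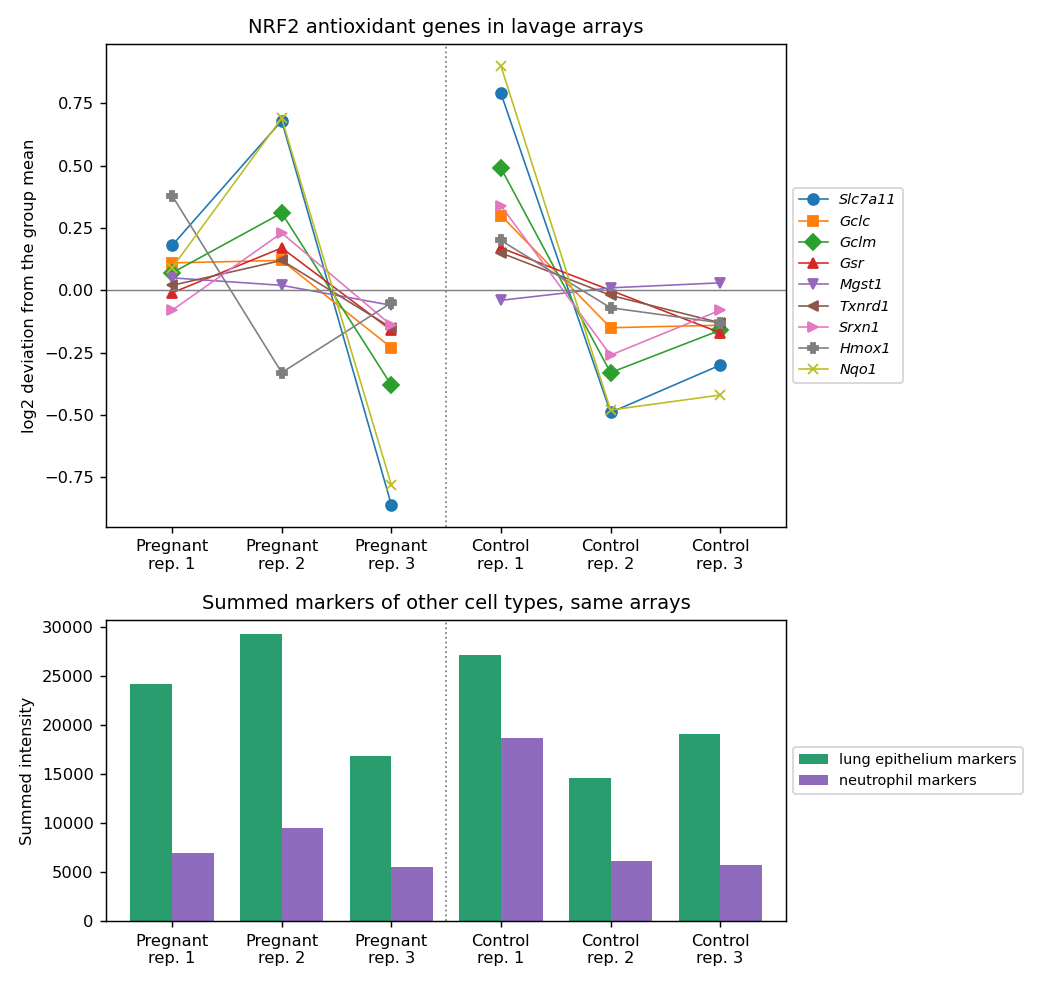
Top, deviation of each gene from the mean of its own group on each lavage array, in log2 units, with lines joining arrays of a group only to guide the eye. Bottom, summed intensity of 10 lung epithelial and 7 neutrophil markers on the same arrays. Pregnant replicate 2 and control replicate 1 lie high for most genes and for the epithelial sum, while Hmox1 is lowest on pregnant replicate 2.

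The changes with estradiol and with pregnancy were set against each other in a fit of all 12 arrays. Of the 9 genes 1 differed, Mgst1, against 3.61% of all genes. Its change was 1.12 with estradiol and -0.04 in pregnancy, a difference of 1.16 ± 0.18 (log2, SE, limma adjusted p = 0.00701). The cell-line levels behind it were dim, as given above. For Slc7a11 the changes of 1.04 and 0.58 differed by 0.46, with a 95% interval of -0.71 to 1.62, and for Srxn1 those of 0.42 and 0.38 differed by 0.04, with an interval of -0.39 to 0.47. For neither gene was a difference shown, and neither interval shows that the responses were alike. Of the wider lists, Gstp1 (0.92 ± 0.07), Gstm1 (-0.48 ± 0.10), Msra (-0.38 ± 0.09) and the coactivator Crebbp (0.54 ± 0.12) differed between the changes (limma adjusted p = 0.000101, 0.0278, 0.0482 and 0.0423). The Gstp1 call held in 12 of the 12 fits that left out an array, that of Gstm1 in 6, Msra in 2 and Crebbp in 1 (adjusted p up to 0.0762, 0.129 and 0.111). Msra also did not pass after scaling to a common median (limma adjusted p = 0.0612), nor Gstm1 with the mean of its probe sets (0.134).

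**Figure D5:**
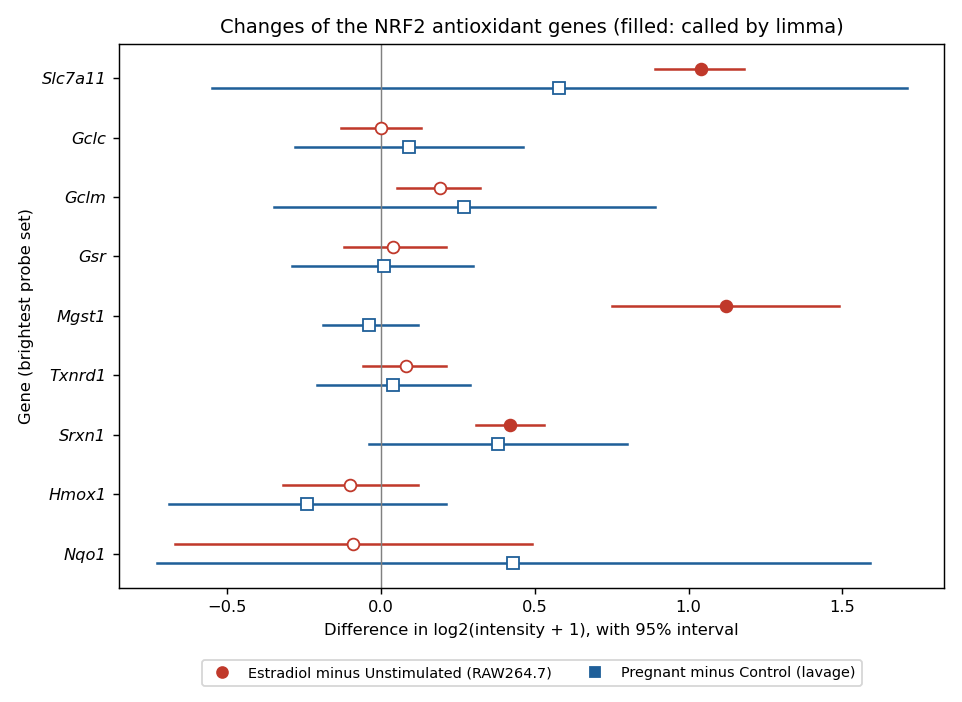
Change of each gene's brightest probe set with estradiol in RAW264.7 cells (circles, above) and with pregnancy in lavage macrophages (squares, below), as a difference in log2(intensity + 1) with its 95% interval (n = 3 arrays a group). Filled symbols passed limma's test, as Slc7a11, Mgst1 and Srxn1 did with estradiol. Intervals are wider in lavage for every gene but Mgst1.

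Levels in untreated lavage and cell-line samples differed for 6 of the 9 genes, 3 higher and 3 lower in control lavage than in unstimulated RAW264.7 cells, against 61.6% of all genes (27.8% higher, 33.8% lower). Mgst1 averaged 12.95 ± 0.03 in control lavage and 4.01 ± 0.28 in unstimulated RAW264.7 cells (SD, n = 3 each), and Nqo1 9.58 ± 0.78 and 6.93 ± 0.27. Both genes were dim on every unstimulated array, so each of those arrays was set to its 40th percentile, which makes Mgst1 at least 52.1-fold and Nqo1 at least 5.04-fold higher in control lavage (limma adjusted p = 3.82e-08 and 0.000915 on the measured values). The other Mgst1 probe set was dim in both groups, at 4.83 in control lavage and 4.18 in unstimulated cells, so the probe sets disagreed about the level in lavage. Hmox1 averaged 13.36 ± 0.17 in control lavage and 12.52 ± 0.01 in unstimulated cells, a difference of 0.84 ± 0.09 (log2, SE, limma adjusted p = 0.000241). Gclc was lower in lavage by 0.65 on the log2 scale, Gsr by 0.29 and Txnrd1 by 0.23 (limma adjusted p = 0.00375, 0.0324 and 0.0412). For the brightest probe sets of Gsr and Txnrd1, the calls each held in 1 of the 6 fits that left out an array. The weaker Gsr probe set differed more, by -1.02 ± 0.27 (log2, SE, limma adjusted p = 0.015), and kept its call in 6 of 6 such fits, and the mean of both Gsr probe sets differed by -0.66 (limma adjusted p = 0.0155). That of the 3 Txnrd1 probe sets differed by -0.60 and did not pass (limma adjusted p = 0.113). Slc7a11, Gclm and Srxn1 averaged 10.11, 11.08 and 12.18 in control lavage, against 9.93, 11.11 and 12.18 in unstimulated cells, and did not pass. Without control replicate 1, Gclm differed by -0.28 (limma adjusted p = 0.013), and 3 of the 4 Srxn1 probe sets, all but the brightest, differed by -0.23, -0.61 and -0.61 (limma adjusted p = 0.0443, 0.000928 and 0.000272). The last 2 of these also passed with array weights (limma adjusted p = 0.0253 and 0.0135). Of the 13 regulators 6 were higher and 3 lower in lavage. Maff differed by 2.23 ± 0.12 and Bach1, the repressor, by 0.75 ± 0.05, while Nfe2l2 differed by -0.24 ± 0.07 and Keap1 by -0.48 ± 0.05 (log2, SE, limma adjusted p = 7.28e-06, 1.65e-05, 0.0168 and 0.00014). Source, sex, culture and the epithelial transcripts above cannot be told apart in this comparison.

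Over the 4 groups the genes fell into different orders of mean level. For Slc7a11 the order from high to low was estradiol (10.97), pregnant (10.69), control (10.11) and unstimulated (9.93), in which the lavage groups overlapped each other and the unstimulated cells, the pregnant arrays spanned the estradiol ones, and every control array lay below every estradiol array. For Srxn1 it was estradiol (12.61), pregnant (12.56), then control and unstimulated (12.18 each), where both lavage groups overlapped each other, the pregnant arrays spanned the estradiol ones and the control arrays the unstimulated ones. For Hmox1 it was control (13.36), pregnant (13.11), unstimulated (12.52) and estradiol (12.42), and each lavage array lay above each cell-line array. Gclc, Gsr and Txnrd1 had cell-line means above lavage means, and Mgst1 and Nqo1 the reverse.

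Genes with profiles most like those of the 3 that rose were sought by the smallest root mean square difference between mean-centred log2 levels over the 12 arrays. For Slc7a11 these were Fcgbp (0.286), Nfkbiz (0.308) and Clec4e (0.31), of which Clec4e stood at 13.19, 13.19 and 13.17 with estradiol, against 12.58, 12.62 and 12.58 unstimulated. In lavage Clec4e stood at 12.79, 12.95 and 12.05 in pregnant mice, against 12.91, 11.86 and 12.05 in control mice. That is the same order of arrays within groups as Slc7a11, but Clec4e was chosen for its likeness over these same arrays. For Srxn1 the nearest were Nfkb2 (0.12), Chpf2 (0.129) and Sod2 (0.132), and for Mgst1 Pygl (0.259), Ly75 (0.311) and Fpr2 (0.342). Chosen after their values were seen, Gsr and Txnrd1 were each other's nearest profile (0.0476), the nearest to Gclm was Blvrb (0.0867), a biliverdin reductase in the wider target list, and the nearest to Nqo1 was the epithelial keratin Krt8 (0.283). Krt8 stood at 7.79, 8.46 and 6.92 in pregnant mice, against 8.19, 6.77 and 6.84 in control mice. Small differences are easier to reach for genes with a narrow range.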

How the data were processed

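RNA of 12 samples, 3 per group, was measured, and each sample's group came from its group label. Deposited intensity values ran on a linear scale from 6.51 to 28506 and were made by the authors with RMA per the submitters' processing notes, which give no version. RMA normally gives log2 values, so the linear scale was taken from the values themselves. No detection calls were used here. A probe set is called dim where it lay under the 40th percentile of its array (7.16 to 7.36 in log2 units). For arrays, their number limits the precision.

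Of 22690 probe sets, 64 controls, 691 paired with several genes and 1555 paired with none were left out. Symbols came from the supplied platform annotation, of which 29 probe sets carried Entrez IDs missing from the RefSeq gene list. Levels were log2(value + 1), so fold changes of dim genes are understated. Each comparison was fitted in limma 3.58.1 (R 4.3.3, with version 1.17.8 of data.table) over all 20380 single-gene probe sets with lmFit and eBayes, two-sided, with Benjamini-Hochberg adjustment over all of them and calls at an adjusted p under 0.05. The estradiol, pregnancy and source comparisons used 6 arrays each and the difference between changes 12. Figures used matplotlib 3.10.9, and table handling used Python 3.11.15, numpy 2.4.6 and pandas 2.3.3. Alternatives (scaling, filters, probe set choice, prior, weights, thresholds, left-out arrays) are given in the closing section.

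Genes named are the 10 members, 8 regulators, other listed pathway genes called (up to 12 per comparison by smallest p) and 3 nearest profiles of up to 3 called members. The members and lists were chosen with earlier results of these data known. The fit was tested on simulated data made from the means and spreads of the 20380 probe sets. In the estradiol design 89.6% of probe sets changed by 1 on the log2 scale were called and 43.3% of those changed by 0.5, and in the pregnancy design 74.6% and 38.8%. The median SD of the 9 genes in lavage was 0.20 in pregnant and 0.26 in control samples, against 0.11 and 0.10 over all probe sets. The shares for the pregnancy design therefore do not carry over to these genes.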

Additional observations from a re-analysis of the deposited data

Results flagged for a closer look

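Mgst1 was picked out because its change with estradiol in RAW264.7 cells differed from its change with pregnancy in lavage macrophages, by 1.16 ± 0.18 on the log2 scale (SE, limma adjusted p = 0.00701 in the fit of all 12 arrays). The difference held in all 12 fits that left out an array, between 1.06 and 1.32. It rests on cell-line levels of 4.96 to 5.33 with estradiol, against 3.83 to 4.33 unstimulated, where the probe set exceeded the 40th percentile on 0 of 6 arrays. With the mean of both Mgst1 probe sets it was 0.66 (limma adjusted p = 0.0219), and for the other probe set alone 0.16 (adjusted p = 0.594). With 3 samples a group, single outlying samples were not sought.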

How the results depend on the processing

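No paired analysis was possible because the labels give no replicate numbers that groups share. The estradiol count of 3 members was 1 in the fit of all 12 arrays, and 3 to 4 when each array was left out in turn. The gene left in the fit of all 12 arrays was Mgst1, dim on every cell-line array. Slc7a11 and Srxn1 did not pass there (limma adjusted p = 0.134 and 0.0969). The filter on dim probe sets takes Mgst1 out of this comparison, whereas Gclm passed with it (limma adjusted p = 0.0481). Srxn1, with a change of 0.42, did not pass the 2-fold threshold. The pregnancy count of 0 members was 0 in each alternative run. The source count of 6 members was 2 with a 2-fold threshold and 4 to 7 without each array in turn, and the count of 1 member for the difference of changes was 1 throughout the left-out fits. Over all probe sets, the estradiol comparison called 1970, against 7885 with array weights, 154 with a 2-fold threshold, 666 at an adjusted p under 0.01 and 750 to 2579 without each array in turn. The lowest counts came without an unstimulated array (794, 750 and 775), with 962 without estradiol replicate 3. Pregnancy called 0, against 32 in the fit of all 12 arrays and 0 to 1 without each array in turn. The source comparison called 12704, against 7671 with 1 probe set per gene, 7785 after averaging the probe sets of each gene (fewer features tested in both), 3938 with a 2-fold threshold and 11161 to 12643 without each array in turn. The difference of changes called 665, against 1954 with array weights, 148 with a 2-fold threshold, 184 at an adjusted p under 0.01 and 320 to 703 without each array in turn (406 and 361 without estradiol replicates 1 and 3, and 354, 320 and 332 without an unstimulated array). Some array-weight fits stopped before converging. The causes of these shifts were not tested. None of the changes named here was called with opposite signs under any 2 settings run. The number of arrays limits these results, and dim levels of Mgst1 and Nqo1 in RAW264.7 cells limit the changes of both.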
